A study of Mus musculus with 64 samples.

Results

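The genes described here are the integrin subunits, laminin chains, syndecans and core genes of the dystrophin complex, chosen by gene symbol (Itga, Itgb, Lama, Lamb, Lamc, Sdc and Sgc genes with Dag1, Dmd and Utrn). The rule found 50 genes among the 39152 named genes of the count table by symbol alone. The series holds 64 libraries of the right ventricle (RV) or left ventricle (LV), which the labels assign in pairs to 32 C57BL6 mice in 5 groups. The question was how loss of plakophilin-2, a desmosome protein of the intercalated disc, and its re-supply by a vector changed the ventricular transcriptome.

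The AAV_1E14_2.5wk group (6 mice) carried the Pkp2 deletion and received 1e+14 vg/kg (vector genomes per kg) of AAV9:mPkp2, an adeno-associated virus that encodes mouse Pkp2, 2.5 weeks after tamoxifen. The AAV_1E14 group (5 mice) received 1e+14 vg/kg and the AAV_3E13 group (8 mice) 3e+13 vg/kg, each as a single dose, which the labels place 1 week before tamoxifen, while the study's descriptions differ on whether these doses came before or after it. The cKO group (4 mice, genotype KO-PKP2) carried the same deletion and received HBSS, the vehicle. The WT group (9 mice) received HBSS and consisted of Cre-negative littermates that also carried both floxed Pkp2 alleles, so the Cre transgene and its activation by tamoxifen were found in every group but WT. Cre was driven by the αMyHC promoter, which is active in cardiomyocytes, so that the deletion is restricted to these cells while the libraries hold RNA of every cell of the ventricle. The hearts of cKO mice were collected earlier than those of the other groups, so that the deletion and the time of collection cannot be told apart in comparisons with cKO.

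Integrins are heterodimers of an α and a β subunit that bind matrix proteins outside the cell and link through talin and kindlin to actin inside it. In muscle the dystrophin complex forms a second link: dystrophin binds actin, dystroglycan (Dag1) binds laminin, and the sarcoglycans hold the complex in the membrane. Laminins are αβγ trimers of the basement membrane, and syndecans are heparan sulfate proteoglycans that act beside integrins. In the heart these genes are known from the cardiomyopathy of muscular dystrophies, and leukocytes carry their own β2, α4 and β7 integrins.

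Libraries held 5.34 to 10.2 M (1e+06) estimated counts after 37 mitochondrially encoded genes had been left out, and levels are given as CPM (counts per 1e+06 counts) with TMM scaling. The deleted gene checked the labels. Pkp2 was 40.2, 62.2, 100.5 and 38.3 CPM in cKO RV, against 124 to 184 CPM in WT RV, and 35.0, 83.8, 89.2 and 65.6 CPM in cKO LV, against 161 to 220.4 CPM in WT LV. In all 3 vector groups Pkp2 was above or within the WT range, with medians of 1782, 1237 and 299 CPM in the RV of AAV_1E14_2.5wk, AAV_1E14 and AAV_3E13 mice. The sum of 6 cardiomyocyte markers was at least 34910 CPM in every library. In 1 WT RV library the sum of 5 atrial markers was 662 CPM, against a WT RV median of 27.2 CPM. The RV and LV libraries of 1 AAV_1E14_2.5wk animal differed in sex-linked transcripts. Some results are also given without that WT library or that animal, and not every result is given in this way.

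On a scale corrected for transcript length (TPM without mitochondrial genes), Itgb1, the β subunit shared by most matrix integrins, was the most abundant member in WT LV at 529 ± 62.2 TPM (SD, n = 9). It was followed by Dmd at 220.3 ± 20.2 TPM, Dag1 at 188 ± 15.7 TPM, Sgca at 152 ± 20.7 TPM and the laminin β2 chain Lamb2 at 138 ± 19.5 TPM. Itgb1 and Dmd were apart by more than their SDs, and the SD ranges of each following pair of neighbours overlapped. Among α subunits, the laminin receptor subunit Itga6 was highest at 124 ± 15.7 TPM, and the cardiac laminin α chains were Lama2 at 110.2 ± 13.9 TPM and Lama4 at 75.7 ± 5.98 TPM. The leukocyte integrins and the collagen receptors Itga2, Itga10 and Itga11 stood at the low end. Lama1, Lamc3, Itgad and Sgcz were at most 1.38 CPM in any library and were too low to be tested in any comparison.

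In cKO hearts Dag1, Sgca, Sgcb and Sgcd fell in both ventricles, while most leukocyte integrins, 3 of 4 syndecans, the collagen receptor subunits Itga2 and Itga11 and the fibronectin receptor subunit Itga5 rose. In RV, 22 of the 46 members tested were higher and 8 were lower in cKO than in WT at an adjusted p below 0.05 (edgeR quasi-likelihood test, Benjamini-Hochberg over all genes tested); of all genes tested, 22.0% were higher and 20.3% lower. In LV, 21 of 45 were higher and 7 lower, beside 23.6% and 23.0% of all genes. The share of members that were higher was above that of all genes in each ventricle, and the share that were lower was near it in RV. The unequal-variance test on log2(TPM + 1) that the study used called 6 members higher and 0 lower in RV and 4 higher and 0 lower in LV. It called 11.6% of all genes in RV and 7.11% in LV. Each lower call given here was lost under it, with values such as -1.19 (adjusted p = 0.0542) in RV and -1.56 (adjusted p = 0.058) in LV for Sgcb and -0.79 (adjusted p = 0.0946) and -1.13 (adjusted p = 0.0565) for Dag1. Most higher calls were lost too, among them Itga6, Itgb4, Itga2, Itga11, Itga5, Lamc1 and Sdc3 in both ventricles and Itgb2 and Itgam in LV. The median log2 fold change of the members was 0.41 in RV and 0.46 in LV, against 0.02 and 0.05 for all genes tested. The CPM ranges of cKO and WT did not overlap for 18 of 46 members in RV (23.7% of all genes) and for 20 of 45 in LV (26.3%).

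**Figure D1:**
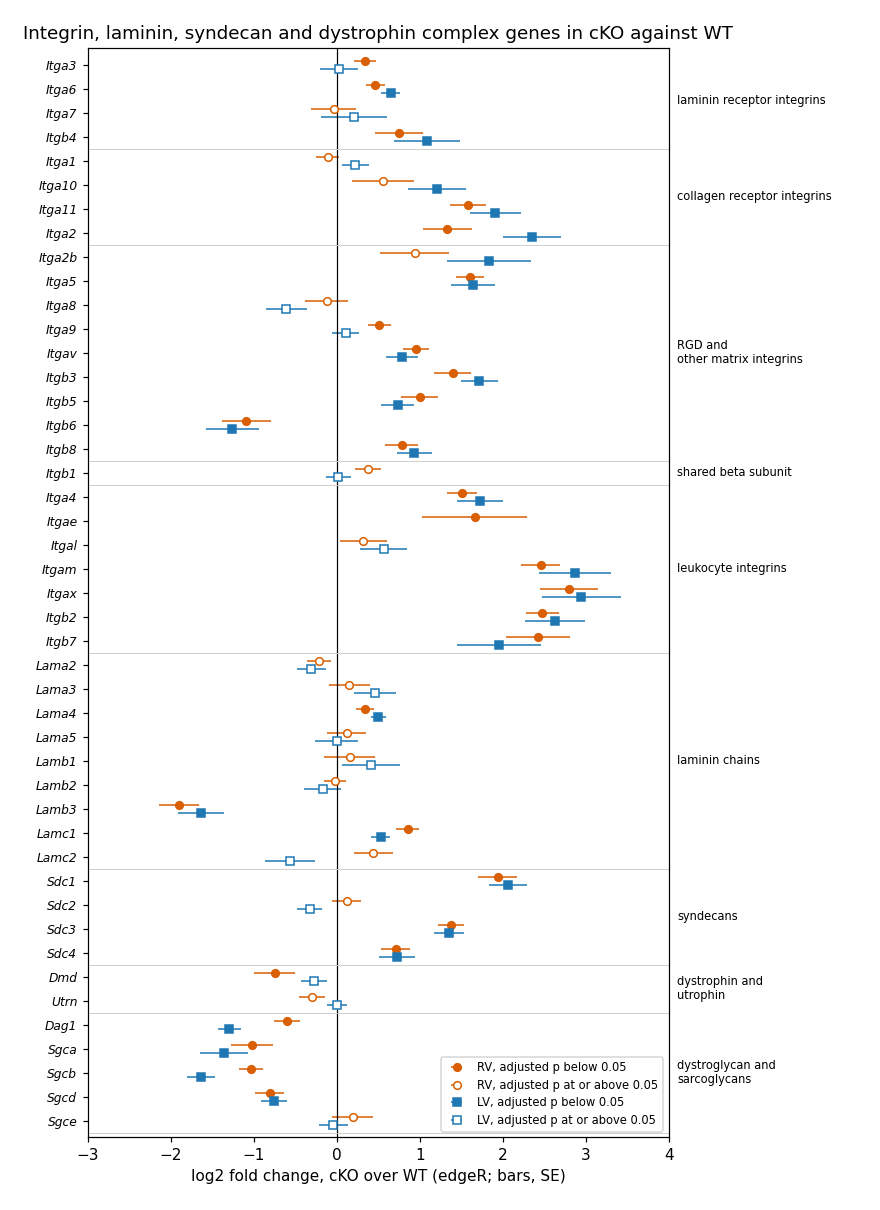
Log2 fold change of tested members in cKO over WT (edgeR; bars, SE; 4 cKO and 9 WT mice), circles for RV and squares for LV, filled where the adjusted p was below 0.05. Members are ordered by role. Leukocyte integrins lie farthest to the right, with Itgax at 2.79 in RV and 2.95 in LV, and Lamb3 is farthest to the left, followed in LV by Sgcb.

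Of dystroglycan and the sarcoglycans reported here, 4 of the 5 tested genes fell in each ventricle and none rose. Beside this, 20.3% of all genes fell in RV and 23.0% in LV. With the 4 cKO mice called A, B, C and D and their values given in this order throughout, Sgcb, the β subunit that assembles first in the sarcoglycan complex, was 59.9, 69.1, 95.4 and 91.7 CPM in cKO RV, against a lowest value of 136, a median of 166 and a highest of 197 CPM in WT RV. In LV it was 50.5, 68.3, 88.2 and 98.5 CPM in cKO, against 178, 240.4 and 277 CPM in WT. The groups did not overlap in either ventricle, mouse A was lowest in both, and Sgcb fell by 1.04 ± 0.14 in RV and by 1.63 ± 0.17 in LV on the log2 scale (SE; adjusted p = 4.98e-05 and 4.98e-06, edgeR). Sgca, the muscle-restricted α subunit, ranged from 12.7 to 48.0 CPM in cKO RV, against 49.1 to 81.1 CPM in WT RV, and Sgcd, the δ subunit, from 29.2 to 72.4 CPM, against 81.0 to 108 CPM. Both again left no overlap, and both were lower in LV as well, at log2 fold changes of -1.36 ± 0.29 for Sgca and -0.76 ± 0.16 for Sgcd. Sgce, the ε subunit, which is made in many tissues, did not pass the test in RV (0.19 ± 0.24, adjusted p = 0.565) or LV (-0.04 ± 0.17, adjusted p = 0.861).

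Dag1 encodes both chains of dystroglycan, the laminin receptor of the complex. It was 214, 207, 268 and 324 CPM in cKO RV, against 292, 386 and 499.5 CPM (lowest, median, highest) in WT RV, and 195, 228, 214 and 295 CPM in cKO LV, against 484, 552 and 669 CPM in WT LV. In RV 1 cKO library lay within the WT range, and in LV the groups were apart. Dag1 fell by 0.60 ± 0.16 in RV (adjusted p = 0.00644, edgeR) and by 1.30 ± 0.14 in LV (adjusted p = 6.92e-06).

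At the inner end of the complex, Dmd passed the test in RV and Utrn in neither ventricle. Dmd, dystrophin, was 700.0, 1097, 1065 and 509 CPM in cKO RV, against 985, 1366 and 2080 CPM (lowest, median, highest) in WT RV. In LV it was 770.4, 1263, 1260 and 949.8 CPM in cKO, against 990.5, 1295 and 1523 CPM in WT. The groups overlapped in both ventricles. Dmd fell by 0.75 ± 0.24 in RV (adjusted p = 0.0208, edgeR), a call that was lost without mouse A (-0.67, adjusted p = 0.067) and without mouse D (-0.57, adjusted p = 0.0763), and in LV the log2 fold change was -0.28 ± 0.15 (adjusted p = 0.154). Utrn, utrophin, the broadly expressed relative of dystrophin, was 317, 394, 298 and 336 CPM in cKO RV, against 292 to 546 CPM in WT RV, and 329.8, 504, 324 and 420.1 CPM in cKO LV, against 348 to 418 CPM in WT LV. Its log2 fold changes of -0.30 ± 0.16 (adjusted p = 0.15) and 0.00 ± 0.12 (adjusted p = 0.999) did not pass the test, and the cKO values fell on both sides of the WT medians in LV.

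Cardiomyocyte markers moved with these genes. All 6 of 6 (Myh6, Actn2, Tnnt2, Ryr2, Ttn and Tnni3) were lower in cKO in each ventricle, and their summed level ranged from 34910 to 90200 CPM in cKO RV, against 99090 to 144300 CPM in WT RV, and from 35100 to 77390 CPM in cKO LV, against 133500 to 162600 CPM in WT LV. Their part in the fall of the sarcoglycans was not tested, and in these bulk samples fewer cardiomyocytes and less RNA per cardiomyocyte cannot be told apart.

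The promoters of the sarcoglycans are shown because Sgca and Sgcb fell together: they are the 250 bases before the annotated start (RefSeq, GRCm38.p6), 5′ to 3′ on the gene's strand, with matches in capitals. The motifs searched on both strands were the E-box CANNTG, the PU box core GAGGAA, the MEF2 core, the AP-1 site TGANTCA and the GC box GGGCGG, which occur in 66.2%, 23.3%, 3.2%, 6.75% and 32.7% of all 32851 promoters of this length. The 32 members in the table have 37 promoters, and a member was counted if any of its promoters held the motif, whereas the shares above are per promoter. By this count 24 members hold an E-box, 15 a PU box core, 15 a GC box, 2 an AP-1 site and 0 a MEF2 core. The Sgca window (chr11:94976328-94976577, minus strand) holds 1 E-box and 1 PU box core, and the Sgcb window (chr5:73647738-73647987, minus strand) 1 GC box.
Sgca: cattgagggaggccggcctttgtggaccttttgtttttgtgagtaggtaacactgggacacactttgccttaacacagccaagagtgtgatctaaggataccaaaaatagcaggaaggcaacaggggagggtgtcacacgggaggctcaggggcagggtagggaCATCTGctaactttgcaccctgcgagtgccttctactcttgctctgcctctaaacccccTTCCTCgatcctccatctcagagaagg
Sgcb: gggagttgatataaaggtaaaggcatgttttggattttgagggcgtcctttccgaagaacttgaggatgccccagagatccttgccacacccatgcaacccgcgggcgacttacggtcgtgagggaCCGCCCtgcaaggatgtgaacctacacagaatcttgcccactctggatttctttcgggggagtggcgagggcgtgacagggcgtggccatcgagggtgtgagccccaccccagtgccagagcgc

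Of 10 tested genes in a list of dystrophin partners and neighbouring genes, 6 fell and 1 (Plec) rose in RV, and 5 fell in LV. Beside this, 20.3% of all genes were lower in RV and 23.0% in LV. Mlip, a muscle-enriched lamin-interacting protein, fell by 1.15 ± 0.19 in RV and by 1.25 ± 0.16 in LV, Ank2, an ankyrin that anchors membrane proteins to spectrin, by 0.76 ± 0.15 and 0.89 ± 0.12, and Sspn, sarcospan, by 1.09 ± 0.22 and 1.79 ± 0.20 (log2, adjusted p from 9e-06 to 0.000998, edgeR). Of 16 tested genes that build the laminin-binding sugar of dystroglycan, 4 fell and 1 (Gmppb) rose in RV, near the share of all genes that were lower there, and 7 fell in LV. The glycosyltransferase gene Large fell by 0.48 ± 0.13 in RV and by 0.49 ± 0.12 in LV, and B3galnt2 by 0.57 ± 0.16 and 0.71 ± 0.16.

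The laminin receptor integrins rose in part. Itga6, which pairs with β1 or β4, was 328, 288, 243 and 295 CPM in cKO RV, against 174, 211 and 257 CPM (lowest, median, highest) in WT RV, and 405, 340.1, 263 and 318 CPM in cKO LV, against 186, 209 and 247 CPM. The groups overlapped in RV through 1 library and not in LV, and the log2 fold changes were 0.46 ± 0.11 (adjusted p = 0.00451, edgeR) and 0.65 ± 0.11 (adjusted p = 0.0003). For Itga6 the RV call was lost with limma-trend on TPM (0.20, adjusted p = 0.251). Itgb4, the hemidesmosome β subunit, was 5.48, 14.2, 5.09 and 15.8 CPM in cKO RV, against 4.85, 5.79 and 9.23 CPM in WT RV, and 3.46, 11.9, 3.05 and 8.47 CPM in cKO LV, against 0.771, 3.35 and 4.06 CPM in WT LV. Its level was raised in mice B and D and lay inside the WT range in the other 2. The log2 fold change of Itgb4 was 0.75 ± 0.29 in RV (adjusted p = 0.0458) and 1.09 ± 0.40 in LV (adjusted p = 0.0347), and 3 of 8 and 4 of 8 alternative analyses kept the call. With single mice left out its RV call was lost in most fits, such as without mouse D (0.45, adjusted p = 0.253) and without the WT library with atrial transcripts (0.73, adjusted p = 0.0668). Its LV call was lost without mouse B (0.66, adjusted p = 0.221), without mouse D (0.95, adjusted p = 0.102) and without some single WT mice. Itga7, the main laminin receptor subunit of striated muscle, did not pass the test at -0.04 ± 0.27 in RV and 0.20 ± 0.39 in LV, and Itga3 rose in RV (0.34 ± 0.13, adjusted p = 0.0463) in the same sense in 1 of 8 alternatives, while the lowest of them gave -0.18.

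Itgb1 was 874, 518, 657 and 871 CPM in cKO RV, against 390.5, 589.9 and 675 CPM (lowest, median, highest) in WT RV, and 913, 536.5, 954 and 769.9 CPM in cKO LV, against 623.5, 807 and 888 CPM in WT LV. Single cKO libraries lay above the WT range and others inside or below it. Neither ventricle passed the test (0.37 ± 0.16, adjusted p = 0.0716, and 0.02 ± 0.15, adjusted p = 0.937, edgeR).

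Of the 4 collagen receptor subunits, 2 rose in RV and 3 in LV, beside 22.0% and 23.6% of all genes. Itga11, a collagen receptor of fibroblasts, was 25.7, 19.5, 10.6 and 28.6 CPM in cKO RV, against 5.43, 7.40 and 9.82 CPM (lowest, median, highest) in WT RV, and 22.4, 34.3, 8.89 and 27.0 CPM in cKO LV, against 3.48, 5.91 and 9.82 CPM in WT LV. Mouse C was lowest in both ventricles and overlapped WT in LV alone. The log2 fold change was 1.58 ± 0.22 in RV (adjusted p = 4.29e-05, edgeR) and 1.91 ± 0.31 in LV (adjusted p = 0.000138). Itga2, the collagen receptor subunit of platelets and epithelia, was 10.9, 5.88, 7.64 and 11.7 CPM in cKO RV, against 2.06, 3.11 and 6.04 CPM in WT RV, and 16.8, 8.49, 3.81 and 9.55 CPM in cKO LV, against 1.19, 1.64 and 3.39 CPM in WT LV. Itga2 rose by 1.33 ± 0.29 in RV (adjusted p = 0.002) and by 2.35 ± 0.35 in LV (adjusted p = 7.11e-05), with 1 cKO library inside the WT range in RV and none in LV. Itga10 rose in LV by 1.20 ± 0.35 (adjusted p = 0.0107), a call that was lost without mouse B, and Itga1 did not pass the test in either ventricle.

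Of the 9 integrin genes for RGD and other matrix ligands, 6 rose and 1 fell in each ventricle. Of all genes tested, 22.0% rose and 20.3% fell in RV and 23.6% and 23.0% in LV. Itga5, the fibronectin receptor subunit, was 212, 98.1, 151 and 111 CPM in cKO RV, against 37.0, 50.4 and 57.4 CPM (lowest, median, highest) in WT RV, and 190.4, 80.1, 168.5 and 77.8 CPM in cKO LV, against 25.3, 38.8 and 63.7 CPM in WT LV. All cKO libraries were above all WT libraries, and mice A and C were highest in both ventricles. Itga5 rose by 1.60 ± 0.17 in RV (adjusted p = 5.43e-06, edgeR) and by 1.64 ± 0.27 in LV (adjusted p = 0.000153). Itgb3, which pairs with αv or with the platelet subunit αIIb, was 25.6, 22.1, 21.6 and 23.2 CPM in cKO RV, against 5.38, 9.02 and 13.7 CPM in WT RV, and 19.3, 21.0, 24.2 and 14.4 CPM in cKO LV, against 4.16, 5.27 and 10.2 CPM in WT LV. The cKO libraries of Itgb3 were close together and clear of WT, at log2 fold changes of 1.40 ± 0.22 (adjusted p = 0.000162) and 1.72 ± 0.22 (adjusted p = 2.43e-05). Its α partner Itgav rose by 0.95 ± 0.15 and 0.79 ± 0.19, and the αv partners Itgb5 and Itgb8 rose by 1.00 ± 0.22 and 0.78 ± 0.20 in RV and by 0.73 ± 0.20 and 0.93 ± 0.21 in LV. Itgb6, the epithelial αv partner, was the exception and fell by 1.09 ± 0.29 and 1.26 ± 0.32 (adjusted p = 0.0074 and 0.005). Platelet markers ranged from 18.45 to 39.9 CPM in sum in cKO RV, against 5.68 to 25.7 CPM in WT RV, and their part in Itgb3 and Itga2b was not tested.

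Leukocyte integrins had the largest fold changes among the members. In RV 6 of 7 tested genes and in LV 5 of 6 were higher, beside 22.0% and 23.6% of all genes. The exception in each was Itgal, the α subunit of LFA-1 (0.32 in RV and 0.56 in LV on the log2 scale). Itgam, the α subunit of Mac-1 on macrophages and neutrophils, was 131, 46.5, 68.9 and 64.0 CPM in cKO RV, against 8.61, 13.6 and 19.8 CPM (lowest, median, highest) in WT RV, and 151, 17.1, 174 and 29.1 CPM in cKO LV, against 7.68, 13.7 and 16.4 CPM in WT LV. Every cKO library was above every WT library, but in LV mice B and D came close to the WT range. Itgam rose by 2.46 ± 0.24 in RV (adjusted p = 2.32e-06, edgeR) and by 2.86 ± 0.43 in LV (adjusted p = 8.88e-05). Itgb2, the common β subunit of these receptors, was 102, 49.1, 44.4 and 59.3 CPM in cKO RV, against 8.30, 11.2 and 15.9 CPM in WT RV, and 117, 23.8, 91.3 and 20.8 CPM in cKO LV, against 6.08, 10.4 and 13.6 CPM in WT LV. The same 2 mice were low in LV, the groups did not overlap, and Itgb2 rose by 2.48 ± 0.20 (adjusted p = 6.42e-07) and 2.63 ± 0.36 (adjusted p = 4.26e-05). Itgax, Itgb7 and Itga4 rose by 2.79 ± 0.35, 2.42 ± 0.39 and 1.51 ± 0.18 in RV and by 2.95 ± 0.48, 1.95 ± 0.51 and 1.72 ± 0.28 in LV.

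The pan-leukocyte markers (6 of 6) and macrophage markers (6 of 6) rose with them. The sum of the 6 leukocyte markers ranged from 418 to 798 CPM in cKO RV, against 132 to 174 CPM in WT RV, and from 268 to 845 CPM in cKO LV, against 116 to 163 CPM in WT LV. The sum of the leukocyte integrins ranged from 207 to 436 CPM in cKO RV, against 61.4 to 98.3 CPM in WT RV. Whether more leukocytes or more RNA per leukocyte gave these levels was not tested.

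The promoters of Itgam and Itgax, neighbours on chromosome 7 that rose together, are shown for the same reason and in the same manner. The Itgam window (chr7:128062390-128062639, plus strand) holds 1 E-box, 2 PU box cores and 1 GC box, and the Itgax window (chr7:128129300-128129549, plus strand) 1 AP-1 site.
Itgam: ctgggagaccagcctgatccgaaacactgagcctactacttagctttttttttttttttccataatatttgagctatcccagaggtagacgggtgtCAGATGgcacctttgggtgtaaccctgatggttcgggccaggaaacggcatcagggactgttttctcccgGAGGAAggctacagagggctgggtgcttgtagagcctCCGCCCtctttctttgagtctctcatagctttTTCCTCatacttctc
Itgax: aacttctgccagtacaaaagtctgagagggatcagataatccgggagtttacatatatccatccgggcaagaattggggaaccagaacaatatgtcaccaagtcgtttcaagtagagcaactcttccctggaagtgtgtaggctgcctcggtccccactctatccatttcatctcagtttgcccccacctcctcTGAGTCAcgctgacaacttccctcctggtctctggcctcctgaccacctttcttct

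**Figure D2:**
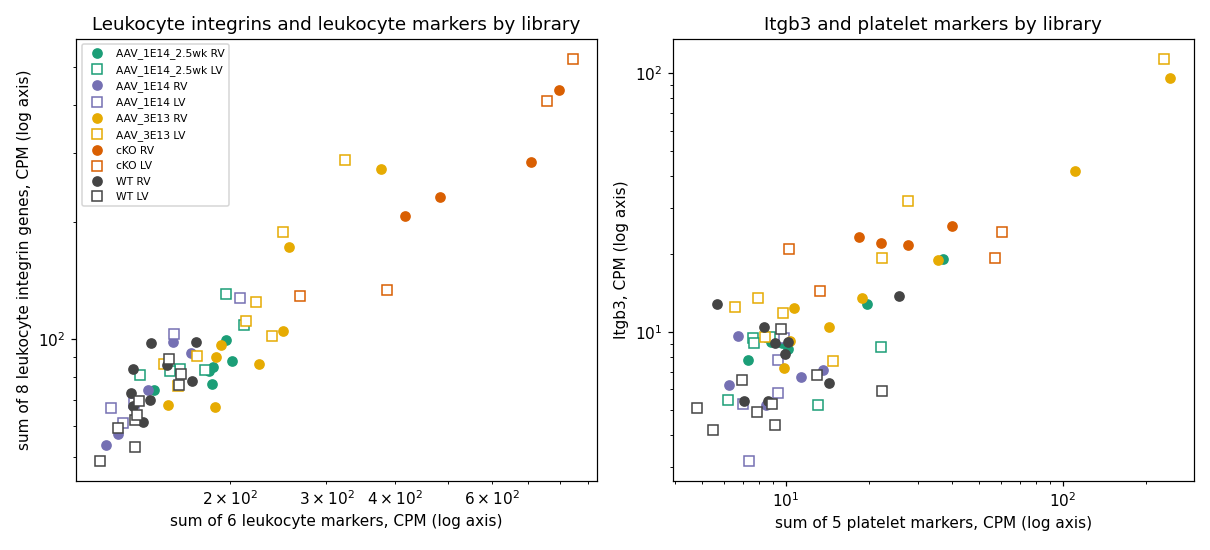
Summed CPM of the 8 leukocyte integrin genes against that of 6 leukocyte markers (left), and Itgb3 CPM against the sum of 5 platelet markers (right), 1 point per library on log axes, coloured by group (circles, RV; squares, LV). The cKO libraries reach 845 CPM of leukocyte markers, and both libraries of 1 AAV_3E13 animal stand apart on the right with Itgb3 at 95.75 and 113.5 CPM.

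Of 9 tested laminin chains, 2 rose in each ventricle, a share near the 22.0% and 23.6% of all genes, and 1 fell. Lamc1, the γ1 chain of nearly all heart laminins, was 592, 484, 529.9 and 847 CPM in cKO RV, against 277, 343 and 410.2 CPM (lowest, median, highest) in WT RV, and 653, 563, 437 and 613 CPM in cKO LV, against 343, 396 and 420.1 CPM in WT LV. No library overlapped, and Lamc1 rose by 0.86 ± 0.14 (adjusted p = 0.000167, edgeR) and 0.53 ± 0.11 (adjusted p = 0.00144). Lama4, the α4 chain of vessel basement membranes, rose by 0.34 ± 0.11 in RV, a call kept in 5 of 8 alternative analyses with a value of 0.01 in the lowest, and by 0.50 ± 0.09 in LV. Lama2, the α2 chain of muscle laminin, did not pass the test at -0.21 ± 0.15 and -0.31 ± 0.18. Lamb3, the β3 chain of epithelial laminin-332, was 2.68, 5.08, 3.08 and 2.39 CPM in cKO RV, against 9.32, 12.2 and 17.1 CPM in WT RV, and 1.47, 4.62, 4.82 and 2.61 CPM in cKO LV, against 8.14, 10.7 and 12.3 CPM in WT LV. It fell by 1.90 ± 0.25 (adjusted p = 2.7e-05) and 1.64 ± 0.27 (adjusted p = 0.000193) with the groups apart in both ventricles. Epithelial markers were near 0, at most 8.25 CPM in sum in any cKO library and 1.61 CPM in any WT library.

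Of the 4 syndecans, 3 rose in each ventricle, beside 22.0% of all genes in RV and 23.6% in LV. Sdc1 was 27.8, 20.02, 16.1 and 29.6 CPM in cKO RV, against 3.63, 6.04 and 8.75 CPM (lowest, median, highest) in WT RV, and 20.6, 13.8, 20.2 and 15.5 CPM in cKO LV, against 2.59, 4.03 and 5.91 CPM in WT LV. Sdc3, known mainly from nerve and muscle progenitors, was 209, 139, 159 and 249 CPM in cKO RV, against 58.0, 74.8 and 99.2 CPM in WT RV, and 249.5, 145, 203 and 156 CPM in cKO LV, against 52.4, 69.8 and 99.9 CPM in WT LV. Neither gene left an overlap between cKO and WT. Sdc1 rose by 1.94 ± 0.24 (adjusted p = 1.65e-05, edgeR) and 2.06 ± 0.23 (adjusted p = 8.01e-06), and Sdc3 by 1.38 ± 0.16 (adjusted p = 1.14e-05) and 1.35 ± 0.18 (adjusted p = 3.7e-05). Sdc4, which sits in focal adhesions, rose by 0.71 ± 0.17 and 0.72 ± 0.21, and its LV call was lost without mouse A or C.

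Genes that act next to these receptors moved in the same comparison. Of 26 tested adaptors of integrin adhesions, 12 rose and 6 fell in RV and 13 rose and 6 fell in LV. Of all genes, 22.0% rose and 20.3% fell in RV and 23.6% and 23.0% in LV, so the share of adaptors that fell was near that of all genes. Actn1, non-muscle α-actinin, rose by 1.81 ± 0.18 in RV and 2.06 ± 0.16 in LV, Flna, the actin crosslinker filamin A, by 1.01 ± 0.14 and 1.28 ± 0.16, and Ptk2b, a kinase related to focal adhesion kinase, by 1.88 ± 0.23 and 1.81 ± 0.26 (log2, adjusted p at most 5.45e-05, edgeR). Of 18 other basement membrane genes, 8 rose and none fell in RV, and 10 rose and 2 fell in LV, beside the same shares of all genes. Sparc, a collagen-binding matrix protein, rose by 2.43 ± 0.21 and 2.09 ± 0.19, Col15a1 by 2.19 ± 0.18 and 1.66 ± 0.23, and Col4a1 by 1.90 ± 0.17 and 1.55 ± 0.17. The sum of 6 fibroblast markers ranged from 2115 to 4198 CPM in cKO RV, against 632.7 to 1184 CPM in WT RV, and from 1345 to 3299 CPM in cKO LV, against 810.5 to 1233 CPM in WT LV; 4 of 6 fibroblast markers in RV and 1 of 6 in LV passed the test as higher, and their part in these results was not tested.

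The next question was how far the same genes differed from WT after vector treatment. In the LV of AAV_1E14 mice no member was called (43 tested, edgeR), beside 0.00750% of all genes, which was Pkp2 alone. At an unadjusted p below 0.05 there was 1 member, and DESeq2 and limma also called 0. In the LV of AAV_1E14_2.5wk mice 2 of 43 members rose and 0 fell, beside 0.859% and 0.633% of all genes, 14 had an unadjusted p below 0.05, and DESeq2 called 6. The 2 were Itgb2 (0.79 ± 0.17, adjusted p = 0.0365) and Sdc4 (0.61 ± 0.11, adjusted p = 0.0185), and between 0 and 4 members were called when 1 of the 6 mice was left out. In the LV of AAV_3E13 mice 21 of 44 members rose and 6 fell, beside 19.9% and 19.2% of all genes.

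**Figure D3:**
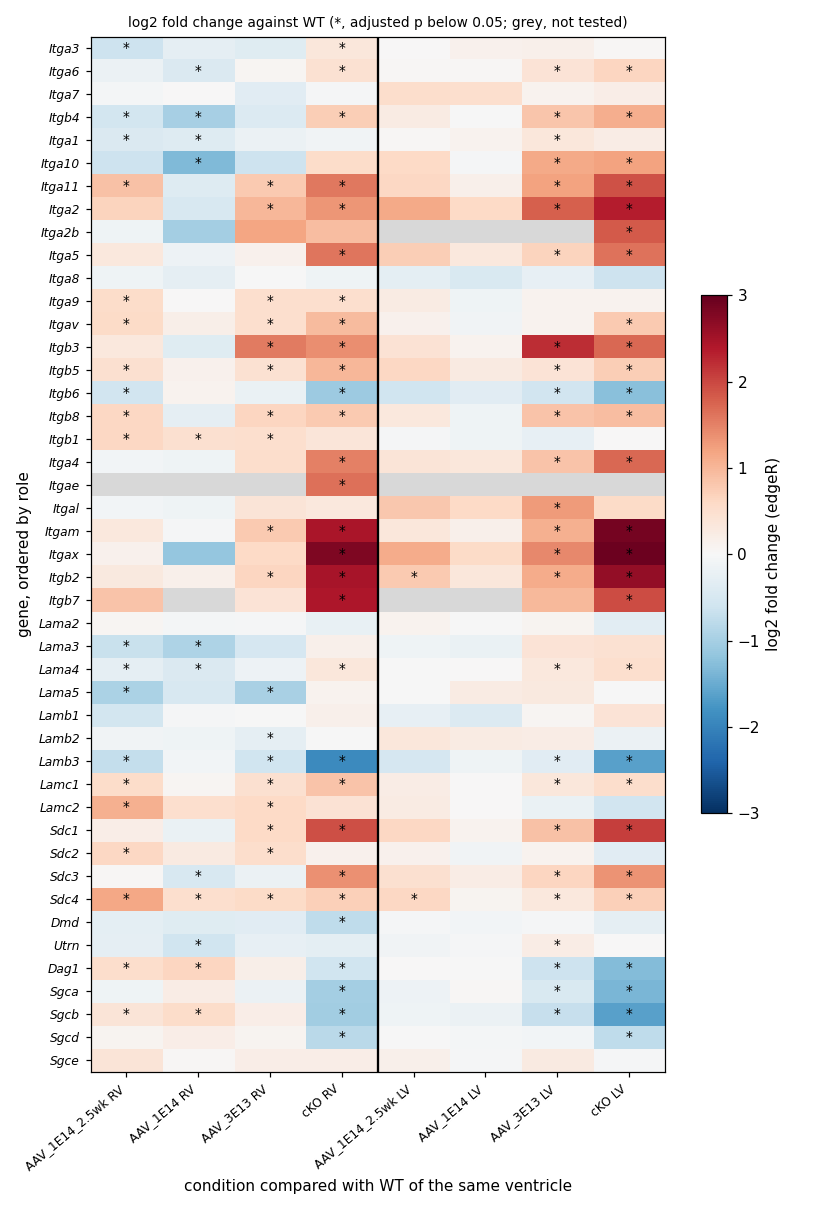
Log2 fold change (colour scale, edgeR) of members against WT of the same ventricle, for AAV_1E14_2.5wk, AAV_1E14, AAV_3E13 and cKO in RV (left of the line) and LV (right). Asterisks mark an adjusted p below 0.05 and grey marks genes that were not tested. Of the LV columns, AAV_1E14_2.5wk holds 2 called members, AAV_1E14 holds 0, and most of the asterisks lie in AAV_3E13 and cKO.

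In AAV_3E13 LV 3 of these 5 dystroglycan and sarcoglycan genes were below WT, beside 19.2% of all genes. Sgcb was 117, 135 and 181 CPM (lowest, median, highest) in AAV_3E13 LV, against 178, 240.4 and 277 CPM in WT LV, and Dag1 317, 369 and 407 CPM, against 484, 552 and 669 CPM. Dag1 was apart from WT and Sgcb overlapped at its edge, with falls of 0.69 ± 0.10 (Sgcb, adjusted p = 3.05e-05, edgeR) and 0.62 ± 0.08 (Dag1, adjusted p = 1.4e-05). Sgca fell by 0.45 ± 0.11, Sgcd and Sgce did not pass the test, and Utrn rose by 0.22 ± 0.07 (adjusted p = 0.0195). The cardiomyocyte marker sum was 92120 to 121400 CPM in AAV_3E13 LV, against 133500 to 162600 CPM in WT LV, and its part was not tested.

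The genes that rose in AAV_3E13 LV included Itgb3 (2.22 ± 0.47, adjusted p = 0.00106, edgeR), Itga2 (1.8 ± 0.34, adjusted p = 0.000373), Itga11 (1.21 ± 0.25, adjusted p = 0.00102) and 5 leukocyte integrins, among them Itgb2 (1.11 ± 0.22) and Itgam (1.07 ± 0.25). In 2 mice, called P and N, such genes were high in both ventricles. Mouse P had Itgb3 at 95.75 CPM in RV and 113.5 CPM in LV, beside a platelet marker sum of 244 CPM in RV and 231.5 CPM in LV, where the medians of its group were 16.6 and 12.3 CPM. Mouse N had Itgam at 67.6 CPM in RV and 60.2 CPM in LV, beside a neutrophil marker sum of 73.1 and 75.6 CPM, against medians of 5.47 and 6.98 CPM. Without mouse P the log2 fold change of Itgb3 was 0.86 ± 0.32 in RV (adjusted p = 0.0626) and 1.37 ± 0.26 in LV (adjusted p = 0.000659), and without mouse N that of Itgam was 0.38 ± 0.16 in RV (adjusted p = 0.107) and 0.78 in LV (adjusted p = 0.00271). The number of members called against WT in AAV_3E13 LV was 24 without either mouse, against 27 with all 8.

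In RV the vector groups differed from WT in another manner. In AAV_1E14_2.5wk RV 13 of 45 members rose and 8 fell, beside 17.8% and 18.5% of all genes. In AAV_1E14 RV 5 of 44 rose and 8 fell, beside 15.4% and 14.1%, and in AAV_3E13 RV 15 of 45 rose and 3 fell, beside 11.8% and 10.0%. Without the WT library with atrial transcripts 11 rose and 2 fell in AAV_3E13 RV. With effective lengths as offsets 14 of the 21 members called in AAV_1E14_2.5wk RV remained called. In AAV_1E14 RV 12 of 13 remained, and in AAV_3E13 RV 11 of 18. With limma-trend on TPM 12, 9 and 12 remained. The median relative effective length was -0.0263, 0.0028 and -0.0169 (log2) in these groups, against 0.0399 in WT RV. Dag1 and Sgcb were above WT at the high dose. Dag1 was 518, 572 and 592 CPM (lowest, median, highest) in AAV_1E14_2.5wk RV and 602, 651, 669, 626 and 548 CPM in AAV_1E14 RV, against 292, 386 and 499.5 CPM in WT RV. Every high-dose library lay above every WT library, at log2 fold changes of 0.53 ± 0.10 (AAV_1E14_2.5wk, adjusted p = 0.000674, edgeR) and 0.65 ± 0.11 (AAV_1E14, adjusted p = 0.00074). Sgcb was 200.5 to 243.7 CPM in AAV_1E14_2.5wk RV and 295, 221, 233, 244.5 and 224.5 CPM in AAV_1E14 RV, against 136, 166 and 197 CPM in WT RV, again with no overlap. Sgcb rose by 0.39 ± 0.09 and 0.55 ± 0.10 (adjusted p = 0.0022 and 0.00117, edgeR), and in AAV_3E13 RV none of the 5 dystroglycan and sarcoglycan genes passed the test. Markers of several cell types also moved at the high dose in RV. The cardiomyocyte marker sum was 111800 to 153600 CPM in AAV_1E14_2.5wk and 134700 to 157800 CPM in AAV_1E14, against 99090 to 144300 CPM in WT, the endothelial sum 884.5 to 1192 and 950.7 to 1183 CPM, against 1173 to 1661 CPM, and the mesothelial sum 13.1 to 19.05 and 12.6 to 15.3 CPM, against 19.05 to 35.0 CPM. The atrial marker sum had a median of 337 CPM in AAV_1E14_2.5wk RV and 28.8 CPM in AAV_1E14 RV, against 27.2 CPM in WT RV, and the part of these cells in the RV results was not tested.

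**Figure D4:**
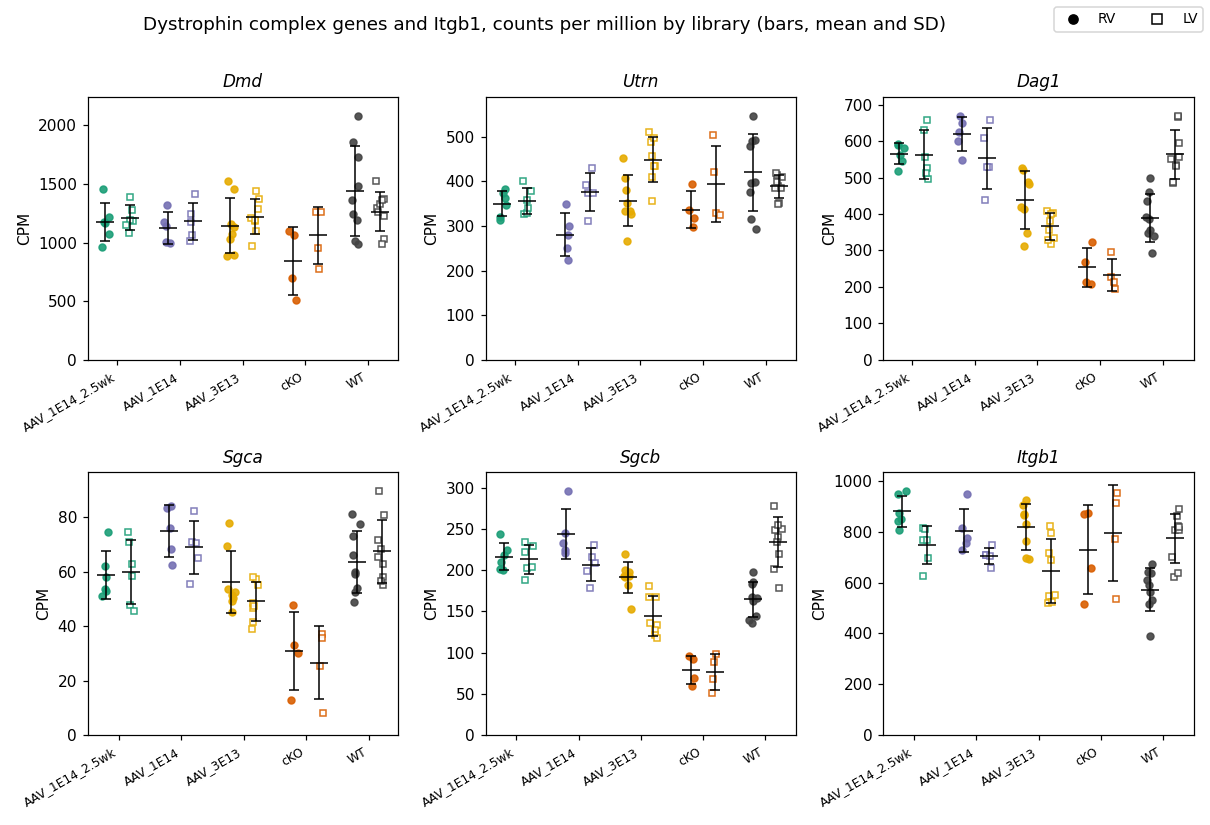
CPM of Dmd, Utrn, Dag1, Sgca, Sgcb and Itgb1 in every library by group (circles, RV; squares, LV; bars, mean and SD; n = 6, 5, 8, 4 and 9 mice from left to right). For Sgcb the cKO libraries lie below all other groups and the mean of AAV_3E13 LV between those of cKO and WT, and for Dag1 and Sgcb the mean of WT RV is below that of WT LV.

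Itgb1 rose in the RV of all 3 vector groups. It was 807, 863 and 958 CPM (lowest, median, highest) in AAV_1E14_2.5wk RV, 947, 730.0, 816, 774 and 755 CPM in AAV_1E14 RV and 694, 848 and 924 CPM in AAV_3E13 RV, against 390.5, 589.9 and 675 CPM in WT RV. No library of these groups fell into the WT range, and the log2 fold changes were 0.61 ± 0.10, 0.47 ± 0.11 and 0.51 ± 0.10 (adjusted p = 0.000206, 0.00507 and 0.00157, edgeR). Among laminin chains, Lamc1 rose in AAV_1E14_2.5wk RV (0.56 ± 0.09) and AAV_3E13 RV (0.48 ± 0.07), and Lama5, the broadly expressed α5 chain, fell in both (-0.94 ± 0.17 and -0.98 ± 0.16). In AAV_3E13 RV limma-trend and the unequal-variance test called 0 members lower, so the Lama5 call was lost under both. Lama5 made up 11.2% ± 2.48 of laminin α chain TPM in AAV_1E14_2.5wk RV and 14.1% ± 4.15 in AAV_3E13 RV (SD). In WT RV this share was 16.5% ± 3.15. Sdc4 rose in the RV of all 3 vector groups (1.17 ± 0.18, 0.50 ± 0.15 and 0.57 ± 0.16), and Utrn fell in AAV_1E14 RV (-0.60 ± 0.15, adjusted p = 0.00674), where it was 249.5, 299, 224, 279 and 349.7 CPM, against 292 to 546 CPM in WT RV.

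Set against cKO instead, Dag1, Sgcb and Sgcd were higher and Itgam, Itgb2, Sdc1 and Sdc3 were lower in the vector groups. These comparisons share their cKO libraries with each other and with the comparison of cKO and WT, so they do not repeat it independently. In AAV_1E14_2.5wk RV 7 of 46 members were higher and 16 lower than in cKO (22.6% and 25.2% of all genes), and in LV 7 of 45 were higher and 14 lower (17.4% and 15.9%). In AAV_1E14 RV 7 of 45 were higher and 22 lower (24.2% and 26.4%), and in LV 6 of 45 and 16 (17.3% and 18.1%). In AAV_3E13 RV 7 of 46 were higher and 16 lower (19.4% and 22.7%), and in LV 5 of 46 and 7 (8.58% and 9.45%). The share of members that were lower was above that of all genes in all 6 comparisons.

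The calls for Dag1, Sgcb and Sgcd held in each of the 6 comparisons, and Sgca was higher in all but AAV_3E13 LV (adjusted p = 0.057, edgeR). Sgcb was higher by 1.46 ± 0.14, 1.64 ± 0.16 and 1.26 ± 0.14 in the RV of AAV_1E14_2.5wk, AAV_1E14 and AAV_3E13 mice and by 1.51 ± 0.18, 1.44 ± 0.19 and 0.89 ± 0.18 in LV. In no vector library did Sgcb fall to the level of a cKO library of the same ventricle. Dmd was not called in any of the 6. The log2 fold change of Itgam was -2.10 ± 0.25, -2.44 ± 0.27 and -1.66 ± 0.38 in RV and -2.52 ± 0.54, -2.73 ± 0.60 and -1.83 ± 0.53 in LV. Sdc1, Sdc3 and Itga5 were lower and Lamb3 was higher than in cKO in all 6, with Lamb3 at log2 fold changes of 1.23 ± 0.27, 1.88 ± 0.29 and 1.33 ± 0.29 in RV. Itga11 and Itga2 were lower than in cKO in AAV_1E14 RV (-1.91 ± 0.31 and -1.76 ± 0.31) and did not pass the test in AAV_3E13 hearts.

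**Figure D5:**
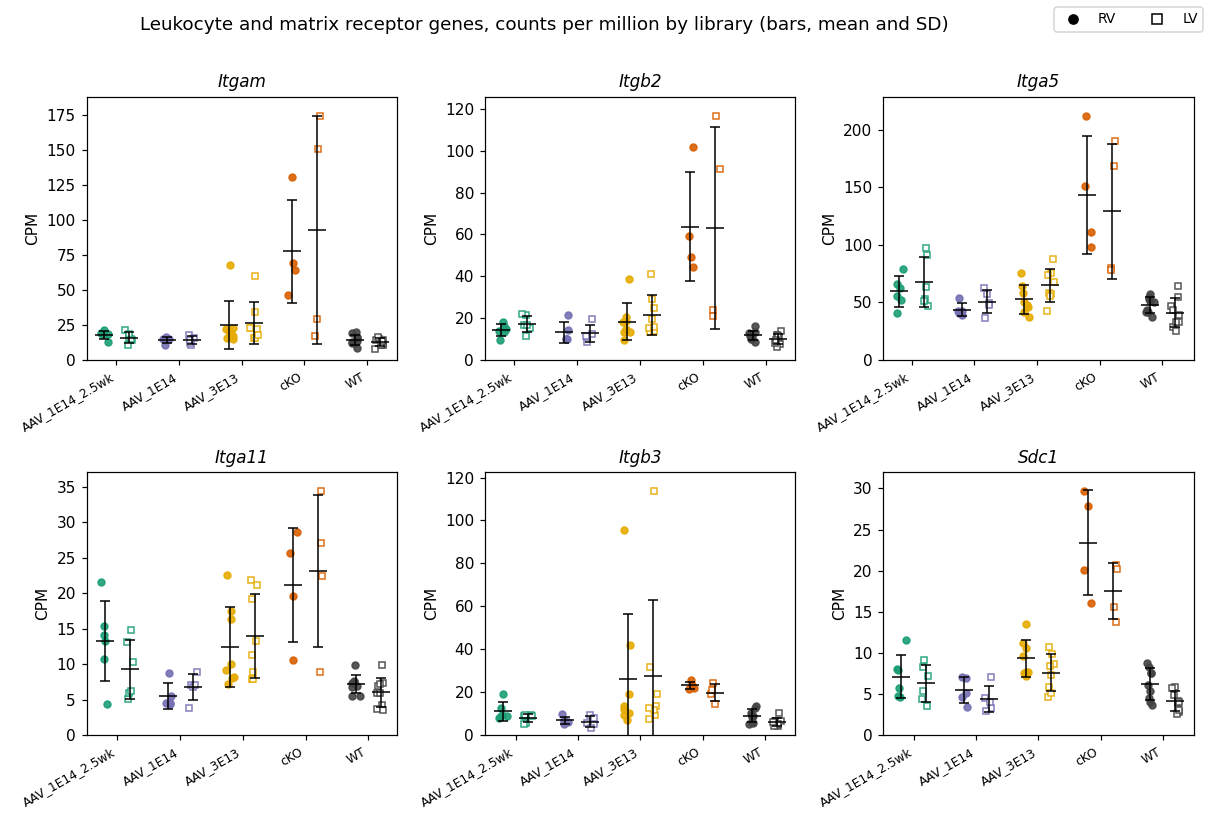
CPM of Itgam, Itgb2, Itga5, Itga11, Itgb3 and Sdc1 in every library by group (circles, RV; squares, LV; bars, mean and SD). The cKO libraries are high for all 6 genes, and single AAV_3E13 libraries reach 67.6 CPM for Itgam and 113.5 CPM for Itgb3.

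Between the doses of 1e+14 and 3e+13 vg/kg, 3 of 45 members were higher and 8 lower in AAV_1E14 than in AAV_3E13 in RV (5.02% and 4.95% of all genes), and 4 of 45 were higher and 10 lower in LV (10.8% and 8.26%). The higher ones included Dag1 and Sgcb in both ventricles and Sgca in LV. Sgcb in LV was 231, 178.5, 199, 209 and 216 CPM in AAV_1E14, against 117, 135 and 181 CPM (lowest, median, highest) in AAV_3E13, with 1 AAV_1E14 library inside the AAV_3E13 range and a log2 fold change of 0.52 ± 0.11 (adjusted p = 0.00496, edgeR). In RV the values for Dag1 and Sgcb were 0.47 ± 0.12 and 0.32 ± 0.09. The lower ones included Itga11 (-1.18 ± 0.31 in RV and -1.05 ± 0.30 in LV), Itgb8 (-0.92 ± 0.19 and -1.0 ± 0.24), Sdc1 (-0.80 ± 0.23 and -0.79 ± 0.26) and Lamc1 (-0.45 ± 0.07 and -0.34 ± 0.09). Itgb3 was lower in LV at -2.14 ± 0.65 (adjusted p = 0.0333) and at -1.29 ± 0.36 (adjusted p = 0.0266) without mouse P, whose omission, chosen after the data were seen, left 11 members called in RV and 12 in LV.

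Between the times of dosing at 1e+14 vg/kg, 6 of 44 members were higher and 1 lower in AAV_1E14_2.5wk than in AAV_1E14 in RV (4.97% and 3.95% of all genes). The largest was Itga11, at 4.43, 13.7 and 21.6 CPM (lowest, median, highest) in AAV_1E14_2.5wk RV, against 5.45, 4.40, 8.76, 4.57 and 4.52 CPM in AAV_1E14 RV, which overlapped, at 1.28 ± 0.33 (adjusted p = 0.0311, edgeR). Lamc1 was 434.6 to 577 CPM in AAV_1E14_2.5wk RV, against 339, 357, 320.2, 375 and 411 CPM in AAV_1E14 RV, with no overlap, at 0.52 ± 0.10 (adjusted p = 0.00992). Without the animal whose libraries differed in sex-linked transcripts 1 of the 7 members remained called, which was Lamc1 (0.50, adjusted p = 0.0264), and Itga11 lost its call (1.28, adjusted p = 0.0575), and DESeq2 called 14 with all animals. In LV edgeR and DESeq2 called 0 of 45 members, 4 had an unadjusted p below 0.05, and 0% of all genes were called.

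RV and LV of the same hearts were compared last. In WT 8 of 43 members were higher and 5 lower in RV than in LV (12.3% and 15.4% of all genes). Dag1 was 292, 386 and 499.5 CPM (lowest, median, highest) in WT RV, against 484, 552 and 669 CPM in WT LV, and Sgcb 136, 166 and 197 CPM, against 178, 240.4 and 277 CPM. The ranges of both genes overlapped, at log2 fold changes of -0.53 ± 0.09 and -0.51 ± 0.09 (adjusted p = 0.000367 and 0.000342, edgeR). Itgb1 was lower in RV by the same test (-0.43 ± 0.10), and Itgb4, Itga2, Itga10 and Itgb3 were higher (0.98, 0.97, 0.96 and 0.59). In WT the cardiomyocyte marker sum had a median of 113500 CPM in RV and 145700 CPM in LV, and the median effective transcript length relative to other libraries was 0.0399 in RV and -0.0483 in LV (log2); with effective lengths as offsets 12 members were called, of which 7 were among the 13, with Dag1 at -0.51, Sgcb at -0.45, Itgb1 at -0.44 and Itga2 at 1.04. Itgb4 (0.78, adjusted p = 0.195), Itga10 (0.63, adjusted p = 0.211) and Itgb3 (0.57, adjusted p = 0.0586) lost their calls under it. With the animal as a block 16 members were called (31.4% of all genes), 11 of them among the 13, and Itga10 (0.88, adjusted p = 0.0718) and Sdc1 (0.58, adjusted p = 0.0504) lost their calls. In cKO no member differed between RV and LV (46 tested, edgeR, 0.00726% of all genes), 1 had an unadjusted p below 0.05, and DESeq2 called 0.

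The effect of treatment relative to WT was then tested for a difference between RV and LV. For cKO the count was 0 of 46 members (edgeR, 0.0272% of all genes), with 4 at an unadjusted p below 0.05, and DESeq2 called 0. With the animal as a block it was 2 (2.57% of all genes), Dag1 (0.66 ± 0.15, adjusted p = 0.0363) and Sgcb (0.58 ± 0.11, adjusted p = 0.0218), both less lowered in RV. For AAV_3E13 the difference passed for 16 of 45 members (36.9% of all genes), for AAV_1E14 for 9 of 45 (20.0%) and for AAV_1E14_2.5wk for 8 of 45 (18.4%), and with the animal as a block for 23, 16 and 13 (39.8%, 25.2% and 22.5% of all genes). Dag1, Sgcb and Itgb1 were among them in all 3 groups, with positive signs, which means a higher RV than LV effect. For Sgcb the differences were 0.53 ± 0.12, 0.71 ± 0.14 and 0.91 ± 0.13 in AAV_1E14_2.5wk, AAV_1E14 and AAV_3E13 (adjusted p = 0.00373, 0.000846 and 2.73e-06). Itga1, a collagen receptor subunit, was called in all 3 with the opposite sign, at -0.44 ± 0.14, -0.50 ± 0.13 and -0.52 ± 0.11. The WT libraries are the same in these tests, and WT RV was called lower than WT LV for Dag1, Sgcb and Itgb1. The AAV_1E14_2.5wk values include the animal whose libraries differed in sex-linked transcripts, so its pairing is uncertain.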

How the data were processed

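Both ventricles of each mouse were sequenced as paired-end reads. Per the labels, libraries were made from RNA extracted by a poly-A protocol with a kit that removes ribosomal RNA, and these statements were not reconciled here. The authors trimmed reads with fastp, quantified transcripts by Salmon 1.8.0 (GRCm39) and used tximport to obtain gene-level values, and deposited 3 tables: estimated counts, TPM and effective length per gene. The estimated counts were rounded to whole numbers, which changed a library total by at most 7.33e-04%. 1 row without a gene name (at most 0.00136% of a library) and 37 mitochondrially encoded genes (16.6 to 40.2% of counts) were left out, which left 5.34 to 10.2 M (1e+06; median 7.93 M) of 7.96 to 14.6 M counts. Genes with low counts have less precise fold changes at this depth.

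Pairs of groups were compared within a ventricle by edgeR 4.0.16 (R 4.3.3; TMM, filterByExpr, quasi-likelihood F test, two-sided) with Benjamini-Hochberg adjustment over all genes tested at 0.05, and the SE is the log2 fold change divided by the root of F. The study's own test was an unequal-variance test on log2(TPM + 1); it was run as an alternative beside DESeq2 1.42.0, limma-trend (limma 3.58.1) on log2(TPM + 0.1), RLE factors, no filter, mitochondrial genes kept, effective length offsets, all 5 groups in 1 fit and the omission of single mice (all mice in cKO against WT, vector mice in vector groups against WT, and cKO mice in vector groups against cKO). TPM were rescaled without mitochondrial genes to compare levels between genes, since CPM is not corrected for length. Replicates are separate mice by their labels.

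The animal number pairs RV and LV, which come from 1 heart by their labels. For the AAV_1E14_2.5wk animal whose libraries differed in sex-linked transcripts this pairing is uncertain. Over 15192 genes the deviations of the 2 libraries of an animal from their group means correlated at a median of 0.0981 (lowest -0.0256, highest 0.471, above 0.1 in 15 of 32 animals), against -0.0111 for different animals of a group, and fits with the animal as a block were run for the comparisons of ventricles.

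Values in every library are given for Dmd, Utrn and Dag1 and for the 2 members of each role list with the smallest larger p of RV and LV in cKO against WT, and up to 3 genes of each list of neighbouring genes were named by the same rule; genes given at dose, time or ventricle comparisons were taken from those called. Of the genes counted, 1 member and 1 neighbouring gene are not reported here individually. The members and the lists were chosen with earlier results of these data known. Promoter sequences are from RefSeq (GRCm38.p6), in which 32 of 50 members were found by symbol.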

Additional observations from a re-analysis of the deposited data

Results flagged for a closer look

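Single libraries of the genes shown by library stood apart from the rest of their group in 15 of 170 groups of values tested by the gap to the nearest library, where chance alone gives about 1 in 20. In AAV_3E13 mice, Itgb3 was 95.75 CPM in RV and 113.5 CPM in LV of mouse P, against 7.26 to 41.95 CPM and 7.72 to 31.9 CPM in the others, and Itga2 was 17.94 CPM in LV of the same mouse, against 2.73 to 6.36 CPM. Mouse N of that group had Itgam at 67.57 CPM in RV and 60.24 CPM in LV, against 14.9 to 22.6 CPM and 15.3 to 34.2 CPM in the others, and Itgb2 at 38.71 CPM in RV, against 9.50 to 20.3 CPM. In AAV_1E14_2.5wk RV, Itgam was 12.54 CPM in 1 mouse, against 18.1 to 21.0 CPM. In AAV_1E14 mice, 1 mouse had Itga11 at 8.76 CPM in RV, against 4.40 to 5.45 CPM, and Itga5 at 53.4 CPM in RV, against 38.6 to 42.3 CPM, and another had Itgb4 at 4.996 CPM in LV, against 2.16 to 2.81 CPM, and Lamb3 at 11.24 CPM in LV, against 8.69 to 9.39 CPM. In WT mice, Itgb4 was 9.232 CPM in 1 RV library, against 4.85 to 6.79 CPM, and 0.7712 CPM in 1 LV library, against 2.46 to 4.06 CPM, Itga11 was 9.824 CPM in 1 RV library, against 5.43 to 7.55 CPM, and Itgb3 was 10.23 CPM in 1 LV library, against 4.16 to 6.79 CPM.

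The effect relative to WT was tested for a difference between RV and LV by the interaction term (edgeR, adjusted p below 0.05). The effect differed for 8 of 45 members in AAV_1E14_2.5wk, 9 of 45 in AAV_1E14 and 16 of 45 in AAV_3E13, shares near the 18.4%, 20.0% and 36.9% of all genes. Among the genes shown by library these were, as RV minus LV log2 differences in AAV_1E14_2.5wk, Itgb1 at 0.67, Dag1 at 0.54, Sgcb at 0.53 and Lamc1 at 0.37. In AAV_1E14 they were Sgcb at 0.71, Dag1 at 0.67, Itgb1 at 0.60, Itga6 at -0.45, Utrn at -0.56 and Sdc3 at -0.71. In AAV_3E13 they were Sgcb at 0.91, Dag1 at 0.79, Itgb1 at 0.77, Itga6 at -0.34, Utrn at -0.45, Sdc3 at -0.79 and Itgb4 at -1.22.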

How the results depend on the processing

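The unequal-variance test on log2(TPM + 1) called fewer members: 6 in cKO vs WT RV and 4 in cKO vs WT LV (30 and 28 by edgeR), 9 in AAV_3E13 vs WT RV (18), 6 in AAV_1E14 vs WT RV (13), 0 in AAV_1E14_2.5wk vs WT LV (2), 7 in AAV_1E14_2.5wk vs cKO RV (23), 0 in AAV_1E14_2.5wk vs cKO LV (21), 13 in AAV_1E14 vs cKO RV (29), 0 in AAV_1E14 vs cKO LV (22), 3 in AAV_3E13 vs cKO RV (23), 0 in AAV_3E13 vs cKO LV (12), 1 in AAV_1E14 vs AAV_3E13 RV (11), 4 in AAV_1E14 vs AAV_3E13 LV (14) and 0 in AAV_1E14_2.5wk vs AAV_1E14 RV (7). DESeq2 called 17 in AAV_1E14 vs AAV_3E13 RV, 14 in AAV_1E14_2.5wk vs AAV_1E14 RV and 6 in AAV_1E14_2.5wk vs WT LV, where limma-trend called 1 and the fit of all 5 groups 0. With the animal as a replicate block, the difference between ventricles passed for 2 members in cKO, 16 in AAV_1E14 and 13 in AAV_1E14_2.5wk (0, 9 and 8 without), beside 2.57%, 25.2% and 22.5% of all genes. The block changed no other count by over 1.5 times. The cause of these differences was not tested.

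Leaving out single mice (each mouse for cKO vs WT, each vector mouse for vector vs WT with 1 WT mouse in RV, and each cKO mouse for vector vs cKO with 1 vector mouse in RV) gave 26 to 30 members in cKO vs WT RV, 27 to 29 in cKO vs WT LV, 13 to 19 in AAV_3E13 vs WT RV, 24 to 29 in AAV_3E13 vs WT LV, 10 to 17 in AAV_1E14 vs WT RV, 0 in AAV_1E14 vs WT LV, 18 to 23 in AAV_1E14_2.5wk vs WT RV and 0 to 4 in AAV_1E14_2.5wk vs WT LV, 20 to 27 and 15 to 23 in AAV_1E14_2.5wk vs cKO RV and LV, 28 to 30 and 22 to 27 in AAV_1E14 vs cKO RV and LV, and 19 to 26 and 8 to 13 in AAV_3E13 vs cKO RV and LV. Without the animal whose libraries differed in sex-linked transcripts, 1 member was called in AAV_1E14_2.5wk vs AAV_1E14 RV. Of 272 values of single genes under the alternatives, 240 kept their side of the threshold, 31 lost the call and 1 gained it. Of 442 with a mouse left out these were 425, 16 and 1. Among values called in either fit, 0 turned their direction. A change of sign without a call in either fit was counted as kept. The values for ventricles without that animal or the WT animal with atrial transcripts, the length offsets between ventricles and the omissions from AAV_1E14 vs AAV_3E13 were added after seeing the data. With 4 cKO mice, rare members such as Itgae, Itga2b and Itgb4 are limited by depth and number.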

Other observations

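The makeup of the laminin α chains was computed on the TPM scale. Lama2 made up 44.1% ± 3.10 of laminin α chain TPM in cKO RV, against 48.0% ± 1.72 in WT RV, and 42.4% ± 5.53 in cKO LV, against 48.9% ± 2.50 in WT LV (SD, n = 4 and 9). Lama4 made up 38.9% ± 4.12 in cKO RV, against 34.4% ± 4.08 in WT RV, and 43.8% ± 6.66 in cKO LV, against 33.9% ± 3.38 in WT LV. The ranges of Lama4 were 37.2 to 50.6% in cKO LV and 25.9 to 36.8% in WT LV and did not overlap, while those in RV did.

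The ratio of Itga5 to Itga7, a fibronectin and a laminin receptor subunit, ranged from 0.905 to 3.28 with a median of 2.06 in cKO RV, against 0.467 to 0.614 with a median of 0.538 in WT RV. In LV it was 1.20 to 3.54 in cKO, against 0.315 to 1.38 in WT, which overlapped. Itgb2 made up 4.53 to 9.69% of integrin β subunit TPM in cKO RV, against 1.01 to 2.73% in WT RV, and 2.27 to 11.97% in cKO LV, against 0.523 to 2.14% in WT LV. Itgb1 made up 73.6 to 81.6% in cKO RV, against 71.0 to 86.9% in WT RV. No test was run on these shares and ratios.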
